A study of Mus musculus with 8 samples.

Results

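The genes described here are 49 mouse genes of the dividing cell, 24 that act in S phase and 25 that act in G2 phase and mitosis. They were taken by symbol from a count table of 50686 genes measured in 8 libraries. All 49 were matched, and all 49 had enough counts to be tested, among 13644 tested genes.

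In S phase a cell licenses its replication origins, loads and fires the replicative helicase, and copies its DNA with polymerases that need a steady supply of nucleotides. In G2 phase and mitosis it activates CDK1 through mitotic cyclins, builds a spindle, attaches chromosomes to it, and divides after a ubiquitin ligase has removed cyclin B and securin. The S phase genes are largely switched on by E2F factors. The G2/M genes are largely switched on by a complex of MuvB with B-MYB and FOXM1 that acts through an element called CHR. CCAAT boxes often stand near that element. E proteins such as E47 are known in lymphocyte progenitors for restraining proliferation, and Id proteins such as ID1 bind E proteins and block their binding to DNA.

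RNA was measured in bulk in group 2 innate lymphoid cells (ILC2), lymphocytes that make type 2 cytokines. All cells came from the thymus of plck-Id1 transgenic C57BL/6 mice, a line in which the proximal Lck promoter, active in developing T cells, drives Id1. The E47-ER groups carried the MIGR1 retroviral vector with GFP and E47 fused to the estrogen receptor, and the GFP groups carried the vector with GFP alone. Cells were sorted for GFP, expanded in a medium whose listed additives include IL-33, IL-25 and IL-7, and all 4 groups received 4-hydroxytamoxifen, the ligand that releases the fusion protein, for 4 or 16 h. Each group held 2 libraries. No E47-ER library without the drug was among those analysed, so a difference present before the drug cannot be told apart from one that followed it. Whether replicates were separate mice or separate cultures is not stated in the labels. The p-values therefore reflect library-to-library spread alone, and that spread may be technical. In bulk RNA, fewer cells in a phase and less RNA of these genes per cell cannot be told apart.

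Total counts were 13761761 to 16982013 in E47-ER libraries and 8813782 to 18677675 in GFP libraries. Esr1, whose reads include the fusion construct, stood at 43.8 to 54.5 CPM (counts per 1000000, scaled by the trimmed mean of M values) in E47-ER libraries and at 0.211 to 0.932 CPM in GFP libraries, as labelled. All 10 ILC2 markers were detected in every library, with a summed level of 18532 to 21002 CPM in E47-ER libraries and 23464 to 28994 CPM in GFP libraries. Markers of T cells (6 genes) summed to 32.0 to 44.8 CPM in E47-ER libraries and 29.4 to 34.8 CPM in GFP libraries, and markers of B cells and myeloid cells summed to less than 14 CPM in every library. GFP 16 h replicate 2 stood apart: it correlated with the rest at a mean of 0.954, where the other 7 reached 0.980 to 0.983, and it had the lowest total count. Values that it moves are given with all 8 libraries and without it, in which case GFP 16 h replicate 1 is taken to vary as much as other libraries do.

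Promoter sequences of 5 members are printed as examples in which the letters of their textbook class are present, which is not so for every member. The following windows, from 250 bases before to 50 bases after the gene start, were taken from RefSeq on GRCm38.p6 and are written 5′ to 3′ on the gene's strand. Mcm3 (chr1:20820263-20820562, minus strand) and Cdt1 (chr8:122567765-122568064, plus strand) are shown for the S phase class, with the E2F letters TTTGGCGC, TTTCGCGC, TTTCCCGC or TTTGCCGC, on either strand, in capitals.
Mcm3: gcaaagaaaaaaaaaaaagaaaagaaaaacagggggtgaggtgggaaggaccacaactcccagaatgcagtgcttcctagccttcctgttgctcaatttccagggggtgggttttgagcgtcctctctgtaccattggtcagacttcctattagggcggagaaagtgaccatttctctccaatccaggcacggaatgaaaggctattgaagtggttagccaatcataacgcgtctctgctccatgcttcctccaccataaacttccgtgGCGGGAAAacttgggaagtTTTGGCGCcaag
Cdt1: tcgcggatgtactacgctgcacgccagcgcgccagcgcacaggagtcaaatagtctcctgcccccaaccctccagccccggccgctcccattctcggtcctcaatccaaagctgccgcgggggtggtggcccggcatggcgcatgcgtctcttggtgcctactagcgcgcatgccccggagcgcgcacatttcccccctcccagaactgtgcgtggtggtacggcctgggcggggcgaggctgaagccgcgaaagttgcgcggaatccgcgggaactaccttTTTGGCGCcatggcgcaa
Ccnb2 (chr9:70421505-70421804, minus strand), Cdk1 (chr10:69352863-69353162, minus strand) and Top2a (chr11:99024140-99024439, minus strand) are shown for the G2/M class, with the CHR letters TTTGAA and the CCAAT letters, on either strand, in capitals. The Cdk1 window also holds E2F letters, left in lower case.
Ccnb2: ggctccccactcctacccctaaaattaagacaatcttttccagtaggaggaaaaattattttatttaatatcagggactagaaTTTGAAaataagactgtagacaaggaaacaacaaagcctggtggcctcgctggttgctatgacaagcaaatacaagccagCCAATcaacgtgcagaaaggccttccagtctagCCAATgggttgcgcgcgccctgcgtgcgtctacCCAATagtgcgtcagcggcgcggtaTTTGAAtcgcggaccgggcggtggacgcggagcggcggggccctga
Cdk1: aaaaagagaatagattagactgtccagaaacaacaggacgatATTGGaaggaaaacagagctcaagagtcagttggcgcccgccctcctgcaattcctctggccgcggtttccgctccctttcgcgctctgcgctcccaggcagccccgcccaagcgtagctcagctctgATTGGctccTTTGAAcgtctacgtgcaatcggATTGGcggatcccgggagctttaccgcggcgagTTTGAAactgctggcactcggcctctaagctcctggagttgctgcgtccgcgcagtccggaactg
Top2a: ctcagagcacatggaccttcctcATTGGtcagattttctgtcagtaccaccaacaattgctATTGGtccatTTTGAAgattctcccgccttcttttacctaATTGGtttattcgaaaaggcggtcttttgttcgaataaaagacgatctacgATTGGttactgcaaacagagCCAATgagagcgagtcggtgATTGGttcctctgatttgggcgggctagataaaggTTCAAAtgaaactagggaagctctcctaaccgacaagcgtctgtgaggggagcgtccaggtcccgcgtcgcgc

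Such windows were matched for 40 of the 49 members, 20 S phase and 20 G2/M genes. E2F letters stood in 35% of the S phase windows and 5% of the G2/M windows, against 2.33% of all 27025 windows of the same length. CHR letters stood in 15% of the S phase and 75% of the G2/M windows, against 18.2% of all windows. CCAAT letters stood in 60% and 85% of these windows, against 38.0% of all. CHR and CCAAT together stood in 70% of the G2/M windows, 10% of the S phase windows and 7.16% of all windows. The E box letters CAGGTG or CACCTG, to which E47 is known to bind, stood in 10% of the S phase windows (Prim1 and Tyms) and 10% of the G2/M windows (Nusap1 and Ect2), against 20.1% of all windows. Any E box (CANNTG, which includes these letters) stood in 55% and 65% of the S phase and G2/M windows, against 72.2% of all. Median GC content was 57.5% in the S phase windows, 58.3% in the G2/M windows and 52.7% in all windows. These are matches of letters in a short window and not measured binding sites.

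The members were well expressed in all 4 groups. Together they took 0.413 to 0.544% of all counts in E47-ER libraries and 0.321 to 0.498% in GFP libraries, the lowest share being that of GFP 16 h replicate 2. Per kilobase of transcript, averaged over the 8 libraries, Pcna (the sliding clamp of the replication fork) had the highest level, at 158 CPM per kilobase. Rrm2 (the regulated subunit of ribonucleotide reductase) stood at 136, Ube2c and Birc5 at 102 each, and Top2a at 80.7 CPM per kilobase. The lowest levels were those of Fen1, at 4.12, Cenpf, at 5.005, and Cdc25c, at 5.66 CPM per kilobase. Exons of Fen1 share 78.8% of their bases with an antisense gene. How shared reads were counted is not known, so its level may be affected. In the plot of levels by gene, the symbols of GFP 16 h replicate 2 lie away from the other 7 libraries for Fen1, Kif20a, Birc5 and Ube2c. Among members, Fen1 had the fewest counts, 21 in GFP 16 h replicate 2, and Top2a the most, 51186 over the 8 libraries.

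**Figure D1:**
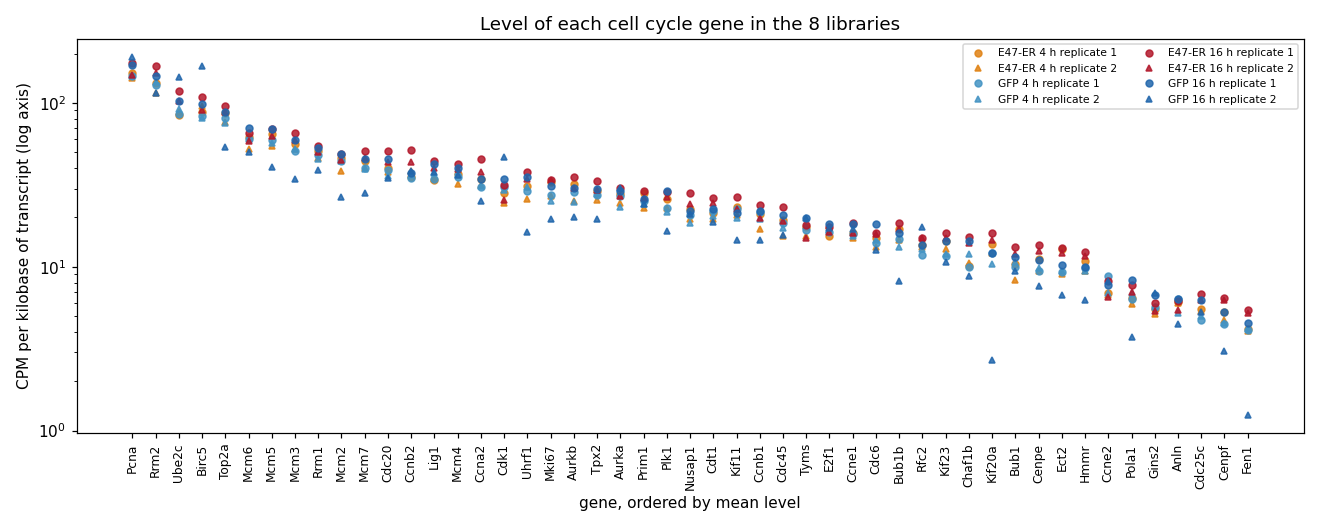
Level of each of the 49 genes in CPM per kilobase of transcript (log axis), ordered by the mean over 8 libraries. Each symbol is 1 library, with colours for the 4 groups. Levels ran between a mean of 158 for Pcna and 4.12 for Fen1, and the triangles of GFP 16 h replicate 2 lie apart for several genes. Exons of Fen1 overlap an antisense gene, and how shared reads were counted is not known.

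With all 8 libraries, no S phase or G2/M gene passed the test for a difference between E47-ER and GFP cells, at 4 h or at 16 h. Of the members, 0 of 49 were called at 4 h by edgeR's quasi-likelihood test at an adjusted p under 0.05, where 0.286% of all tested genes were called, and 0 of 49 at 16 h, where 1.59% were called. DESeq2 also called 0 members at either time. At an unadjusted p under 0.05, 0 members passed at 4 h and 8 at 16 h, all of them G2/M genes, a share of 16.3% at 16 h against 24.0% of all tested genes, and of 0% at 4 h against 5.82%. Without GFP 16 h replicate 2, 0 of 49 were called at 4 h against 4.33% of all genes, and 0 of 49 at 16 h against 8.92% of all genes. Without GFP 16 h replicate 1, where GFP 16 h replicate 2 stands for its group alone, 0 of 49 were called at 4 h, against 4.29% of all genes, and 36 of 49 at 16 h (33 higher and 3 lower in E47-ER cells), against 48.6% of all genes.

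At 4 h the median log2 fold change, E47-ER over GFP, was -0.050 for the S phase genes and 0.086 for the G2/M genes, against -0.0043 for all tested genes. Leaving out 1 library turned the sign of each: the S phase median was 0.041 without E47-ER 4 h replicate 2, and the G2/M median was -0.0041 without E47-ER 4 h replicate 1. Member values ran from -0.20 for Ccne2 to 0.24 for Ect2. The 95% interval lay within 2-fold either way for 48 of 49 members, Kif20a being the exception, and within 1.5-fold for 34 of 49. With GFP 16 h replicate 2 left out it lay within 1.5-fold for 49 of 49 members. That library does not enter the 4 h values, and only the spread shared by the groups became smaller. The median log2 fold change of the members was 0.043 with all libraries and 0.046 without it, and the median SE was 0.18 and 0.098. Both E47-ER libraries were above both GFP libraries for 8 members, 16.3% of them, against 22.4% of all tested genes, and below both for 3 members, against 22.9% of all tested genes. The 8 were Mcm7, Rfc2, Ccna2, Cdc25c, Plk1, Birc5, Cenpf and Kif23, and the 3 were Gins2, Ccne2 and Cdk1.

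At 16 h the median was 0.15 for the S phase genes and 0.33 for the G2/M genes with all 8 libraries, and -0.023 and 0.12 without GFP 16 h replicate 2. The median of all tested genes was within 0.01 of 0 in both fits. Both E47-ER libraries were above both GFP libraries for 21 members, 42.9% of them, against 27.8% of all tested genes. These were 6 of 24 S phase genes and 15 of 25 G2/M genes. For Gins2, Tyms and Cdk1 both E47-ER libraries were below both GFP libraries, against 26.6% of all tested genes. Set against GFP 16 h replicate 1 alone, both E47-ER libraries were higher for 22 members, against 40.5% of all genes, and lower for 9, against 39.2%. The G2/M count of higher genes was 15 of 25 there, and the S phase counts were 7 higher and 6 lower. Such counts can only stay or rise when a library is left out, because a gene above both GFP libraries is also above replicate 1.

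**Figure D2:**
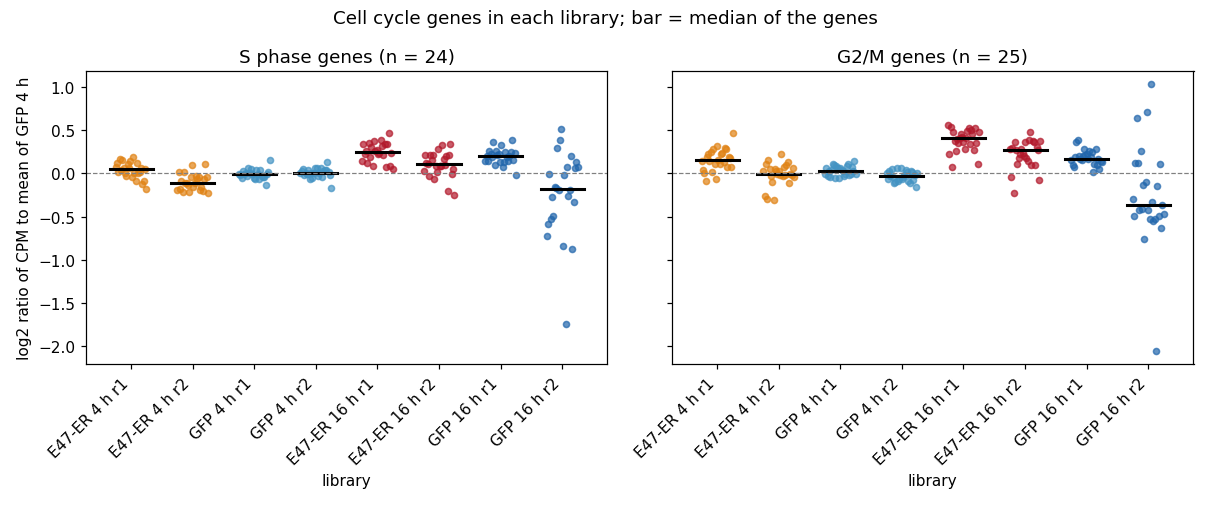
Log2 ratio of the CPM of each gene to its mean in the GFP libraries at 4 h, by library, for the 24 S phase genes and the 25 G2/M genes. Points are genes and bars their median. The medians of the G2/M genes were 0.41 and 0.26 in the E47-ER libraries at 16 h, against 0.17 in GFP 16 h replicate 1 and -0.36 in GFP 16 h replicate 2, whose points also spread most.

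At 16 h Mcm3, Mcm7 and Cdt1 of origin licensing and the helicase were higher in both E47-ER libraries than in both GFP libraries. Gins2 was lower in both, and the other genes of this class overlapped. Of all tested genes, 27.8% were higher and 26.6% lower in this way. Mcm2 to Mcm7 encode the ring of the replicative helicase, Cdc6 and Cdt1 load it onto origins, and Gins2 and Cdc45 complete the active helicase. Cdt1 (ENSMUSG00000006585; chr8:122568015-122573554) had 46.3 and 43.0 CPM in E47-ER cells at 4 h, against 48.2 and 44.4 CPM in GFP cells. It had 57.2 and 53.6 CPM in E47-ER cells at 16 h, against 49.4 and 41.1 CPM in GFP cells, so that the groups overlapped at 4 h and not at 16 h. The log2 fold change at 16 h was 0.29 (SE 0.14, adjusted p = 0.242) and 0.16 without GFP 16 h replicate 2 (adjusted p = 0.480). Gins2, a subunit of the GINS complex, had 21.6 and 20.1 CPM in E47-ER cells at 4 h, against 22.1 and 22.0 CPM in GFP cells. At 16 h Gins2 had 23.4 and 21.1 CPM in E47-ER cells and 26.3 and 26.9 CPM in GFP cells, with E47-ER below GFP in every library at both times (log2 fold change -0.26, SE 0.14, adjusted p = 0.267), and it was -0.25 without GFP 16 h replicate 2. Exons of Gins2 share 67.3% of their bases with Gse1 on the opposite strand, and the strand setting of the counting is not given in the sources used here, so its counts may hold reads of Gse1. The 6 Mcm genes lay between 0.044 (Mcm6) and 0.41 (Mcm3) at 16 h with all libraries, and between -0.19 (Mcm6) and 0.082 (Mcm7) without GFP 16 h replicate 2.

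Among the enzymes of the fork, Fen1, which removes the flaps of Okazaki fragments, had 9.34 and 9.14 CPM in E47-ER cells at 4 h, against 9.29 and 9.41 CPM in GFP cells. At 16 h Fen1 had 12.2 and 11.7 CPM in E47-ER cells, against 10.2 and 2.80 CPM in GFP cells. The low value is that of GFP 16 h replicate 2, and the fold change was 0.79 on the log2 scale with all libraries (SE 0.42, adjusted p = 0.274), against 0.22 without it. Exons of Fen1 share 78.8% of their bases with the antisense gene Gm10143, which had 64 counts in all. They share 5.37% with Tmem258 on the opposite strand, which had 11782 counts in all. Pcna had 232 and 214 CPM in E47-ER cells at 4 h, against 220.4 and 223 CPM in GFP cells. With 264 and 223 CPM in E47-ER cells and 258 and 290.0 CPM in GFP cells at 16 h, Pcna overlapped again (log2 fold change -0.17, SE 0.14, adjusted p = 0.451, and -0.090 without GFP 16 h replicate 2). Rfc2 of the clamp loader, Pola1 and Prim1 of the priming polymerase and Lig1, the ligase of Okazaki fragments, lay between -0.054 and 0.27 on the log2 scale at 16 h with all libraries, and between -0.18 and 0.14 without GFP 16 h replicate 2.

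Of the genes of nucleotide supply, Rrm2 had 288 and 252 CPM in E47-ER cells at 4 h, against 283 and 294 CPM in GFP cells. At 16 h it had 366 and 332 CPM in E47-ER cells and 318 and 252 CPM in GFP cells, both E47-ER libraries being higher (log2 fold change 0.29, SE 0.15, adjusted p = 0.271). Its value without GFP 16 h replicate 2 was 0.12 (adjusted p = 0.518). Tyms, thymidylate synthase, was the other way round at 16 h, with 57.2 and 47.3 CPM in E47-ER cells and 62.4 and 62.5 CPM in GFP cells (log2 fold change -0.26, SE 0.14, adjusted p = 0.284) and -0.27 without that library. Its levels overlapped at 4 h, with 55.1 and 48.9 CPM in E47-ER cells and 52.9 and 56.0 CPM in GFP cells. Rrm1, the large subunit of the reductase, had a log2 fold change of 0.18 with all libraries and -0.036 without GFP 16 h replicate 2.

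Uhrf1, which binds newly replicated DNA and helps to keep its methylation, had 109 and 89.9 CPM in E47-ER cells at 4 h, against 101 and 107 CPM in GFP cells. At 16 h Uhrf1 had 132 and 120.3 CPM in E47-ER cells and 123 and 56.7 CPM in GFP cells. The groups overlapped at both times, and the log2 fold change at 16 h was 0.48 with all libraries (adjusted p = 0.345) and 0.025 without GFP 16 h replicate 2. Chaf1b, a subunit of the CAF-1 chaperone that loads histones onto new DNA, had 19.3 and 20.0 CPM in E47-ER cells at 4 h, against 19.03 and 22.9 CPM in GFP cells. At 16 h it had 29.0 and 26.6 CPM in E47-ER cells and 27.3 and 16.6 CPM in GFP cells, again with overlap (log2 fold change 0.32, SE 0.23, adjusted p = 0.390), and its log2 fold change was 0.015 without GFP 16 h replicate 2. E2f1 and the cyclin E genes Ccne1 and Ccne2, which drive entry into S phase, had log2 fold changes of -0.074, -0.041 and -0.12 at 16 h, and of -0.12, -0.096 and -0.086 without that library, each with an interval that held 0.

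Among the mitotic cyclins and their kinase, Ccna2 and Ccnb2 lay above 0 at 16 h and Cdk1 below it, in both fits. Ccna2 (ENSMUSG00000027715; chr3:36564865-36572150), cyclin A2, had 101 and 93.8 CPM in E47-ER cells at 4 h, against 91.4 and 92.4 CPM in GFP cells. At 16 h Ccna2 had 135 and 112 CPM in E47-ER cells and 102 and 74.8 CPM in GFP cells, with no overlap at either time (log2 fold change 0.47, SE 0.17, adjusted p = 0.170). The value without GFP 16 h replicate 2 was 0.26 (adjusted p = 0.171). Cdk1 (ENSMUSG00000019942; chr10:69335146-69352938), the kinase that these cyclins activate, had 79.4 and 68.6 CPM in E47-ER cells at 4 h, against 86.4 and 82.9 CPM in GFP cells. At 16 h Cdk1 had 89.1 and 72.0 CPM in E47-ER cells and 96.5 and 132 CPM in GFP cells, lower in each E47-ER library than in each GFP library at both times. Its log2 fold change at 16 h was -0.50 (SE 0.19, adjusted p = 0.171), and -0.27 without GFP 16 h replicate 2 (adjusted p = 0.197). Ccnb2, cyclin B2, had the smallest adjusted p of any member without that library, 0.0843 at a log2 fold change of 0.34. With all libraries Ccnb1 stood at 0.26 and Cdc25c, the phosphatase that activates CDK1, at 0.17, against -0.0076 and 0.050 without GFP 16 h replicate 2.

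Of the mitotic kinases and the spindle checkpoint, Bub1b (BUBR1, a part of the checkpoint complex) had 62.2 and 53.0 CPM in E47-ER cells at 4 h, against 54.1 and 48.2 CPM in GFP cells. At 16 h Bub1b had 67.9 and 62.2 CPM in E47-ER cells and 58.6 and 30.2 CPM in GFP cells, both E47-ER libraries being higher (log2 fold change 0.54, SE 0.27, adjusted p = 0.252). Without GFP 16 h replicate 2 the value was 0.14. Aurkb, the kinase of the chromosomal passenger complex, had 60.3 and 47.3 CPM in E47-ER cells at 4 h, against 54.3 and 47.1 CPM in GFP cells. Its levels at 16 h were 67.0 and 57.3 CPM in E47-ER cells and 56.8 and 38.1 CPM in GFP cells, with a margin of under 1 CPM between the nearest libraries of the groups (log2 fold change 0.38, SE 0.22, adjusted p = 0.294), and a value of 0.12 without GFP 16 h replicate 2. Plk1, Aurka and Bub1 had log2 fold changes of 0.28, -0.044 and 0.26 with all libraries, and of -0.067, -0.020 and 0.12 without GFP 16 h replicate 2.

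Both partners of the ubiquitin ligase that ends mitosis overlapped between the groups at both times. Cdc20, its activator, had 71.7 and 68.1 CPM in E47-ER cells at 4 h, against 69.4 and 63.8 CPM in GFP cells. At 16 h Cdc20 had 91.0 and 78.4 CPM in E47-ER cells and 81.2 and 62.0 CPM in GFP cells (log2 fold change 0.24, SE 0.16, adjusted p = 0.370), with a value of 0.053 without GFP 16 h replicate 2. Ube2c, its ubiquitin-conjugating enzyme, had 82.0 and 84.8 CPM in E47-ER cells at 4 h, against 82.2 and 89.1 CPM in GFP cells. At 16 h it had 115 and 98.7 CPM in E47-ER cells and 99.2 and 139.6 CPM in GFP cells, GFP 16 h replicate 2 being the highest of all (log2 fold change -0.16, SE 0.18, adjusted p = 0.586). The log2 fold change of Ube2c had the other sign, 0.10, without that library, and its interval held 0 in both fits.

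Among the chromosome and kinetochore genes, Cenpe, the kinetochore motor, had 88.5 and 74.7 CPM in E47-ER cells at 4 h, against 74.2 and 77.9 CPM in GFP cells. At 16 h Cenpe had 107 and 99.0 CPM in E47-ER cells and 86.9 and 60.6 CPM in GFP cells, with no overlap (log2 fold change 0.48, SE 0.18, adjusted p = 0.181). Cenpf, a large protein of the outer kinetochore, had 58.7 and 52.5 CPM in E47-ER cells at 4 h, against 49.6 and 50.3 CPM in GFP cells. Its levels at 16 h were 71.9 and 69.6 CPM in E47-ER cells and 59.2 and 34.0 CPM in GFP cells, higher in every E47-ER library at both times (log2 fold change 0.59, SE 0.23, adjusted p = 0.181). With GFP 16 h replicate 2 left out the log2 fold changes were 0.24 for Cenpe and 0.25 for Cenpf. Mki67, the source of the proliferation antigen Ki-67, and Top2a, which untangles sister chromatids, stood at 0.42 and 0.37 with all libraries, and at 0.13 and 0.051 without that library. Birc5 (survivin) stood at -0.41 and 0.015 in these fits.

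Of the spindle genes, Hmmr, which binds spindle microtubules, had 42.4 and 36.9 CPM in E47-ER cells at 4 h, against 38.2 and 36.9 CPM in GFP cells. At 16 h Hmmr had 47.9 and 45.1 CPM in E47-ER cells and 38.8 and 24.2 CPM in GFP cells (log2 fold change 0.55, SE 0.21, adjusted p = 0.178). Kif11, the motor that pushes spindle poles apart, had 111 and 100.2 CPM in E47-ER cells at 4 h, against 108 and 95.8 CPM in GFP cells. Its levels at 16 h were 128 and 109 CPM in E47-ER cells and 103 and 70.4 CPM in GFP cells (log2 fold change 0.45, SE 0.19, adjusted p = 0.203), so that both genes overlapped at 4 h and not at 16 h. Leaving out GFP 16 h replicate 2 gave 0.26 for Hmmr and 0.20 for Kif11. The largest fold change of any member with all libraries was that of Kif20a, a motor of the late spindle, with 50.2 and 45.9 CPM in E47-ER cells and 38.1 and 8.52 CPM in GFP cells at 16 h. It was 0.996 on the log2 scale (95% interval -0.16 to 2.15, adjusted p = 0.252) with all libraries and 0.33 (adjusted p = 0.143) without GFP 16 h replicate 2, which had 64 counts of it. Exons of Kif20a share 29.3% of their bases with Cdc23 on the opposite strand. Kif23, Tpx2 and Nusap1 lay between 0.28 and 0.35 with all libraries, and between 0.076 and 0.25 without that library.

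For cytokinesis, Ect2, which activates RhoA at the cleavage site, had 52.7 and 37.0 CPM in E47-ER cells at 4 h, against 37.9 and 38.3 CPM in GFP cells. At 16 h Ect2 had 52.8 and 49.3 CPM in E47-ER cells and 41.6 and 27.4 CPM in GFP cells (log2 fold change 0.55, SE 0.23, adjusted p = 0.192). Anln, the scaffold of the contractile ring, had 28.0 and 27.7 CPM in E47-ER cells at 4 h, against 29.3 and 23.9 CPM in GFP cells. Its levels at 16 h were 28.5 and 25.2 CPM in E47-ER cells and 29.4 and 20.6 CPM in GFP cells, which overlapped as well (log2 fold change 0.091, SE 0.20, adjusted p = 0.781). Ect2 overlapped at 4 h and not at 16 h. Set against GFP 16 h replicate 1 alone, Ect2 stood at 0.29 and Anln at -0.14, both E47-ER libraries then being below it for Anln.

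The plot of fold changes with their intervals shows how far the data limit an effect. With all libraries, the interval at 16 h lay within 1.5-fold either way for 17 of 49 members. At 16 h the interval lay within 2-fold either way for 42 of 49 members with all libraries, and for 49 of 49 without GFP 16 h replicate 2. It lay within 1.5-fold for 45 of 49 members in that fit, the widest reach being a log2 value of 0.62 (Ect2) upward and -0.54 (Gins2) downward. The median half-width of the interval was 0.43 with all libraries and 0.25 without GFP 16 h replicate 2. In the latter fit the GFP group at 16 h held 1 library, so its spread was taken from the other groups.

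**Figure D3:**
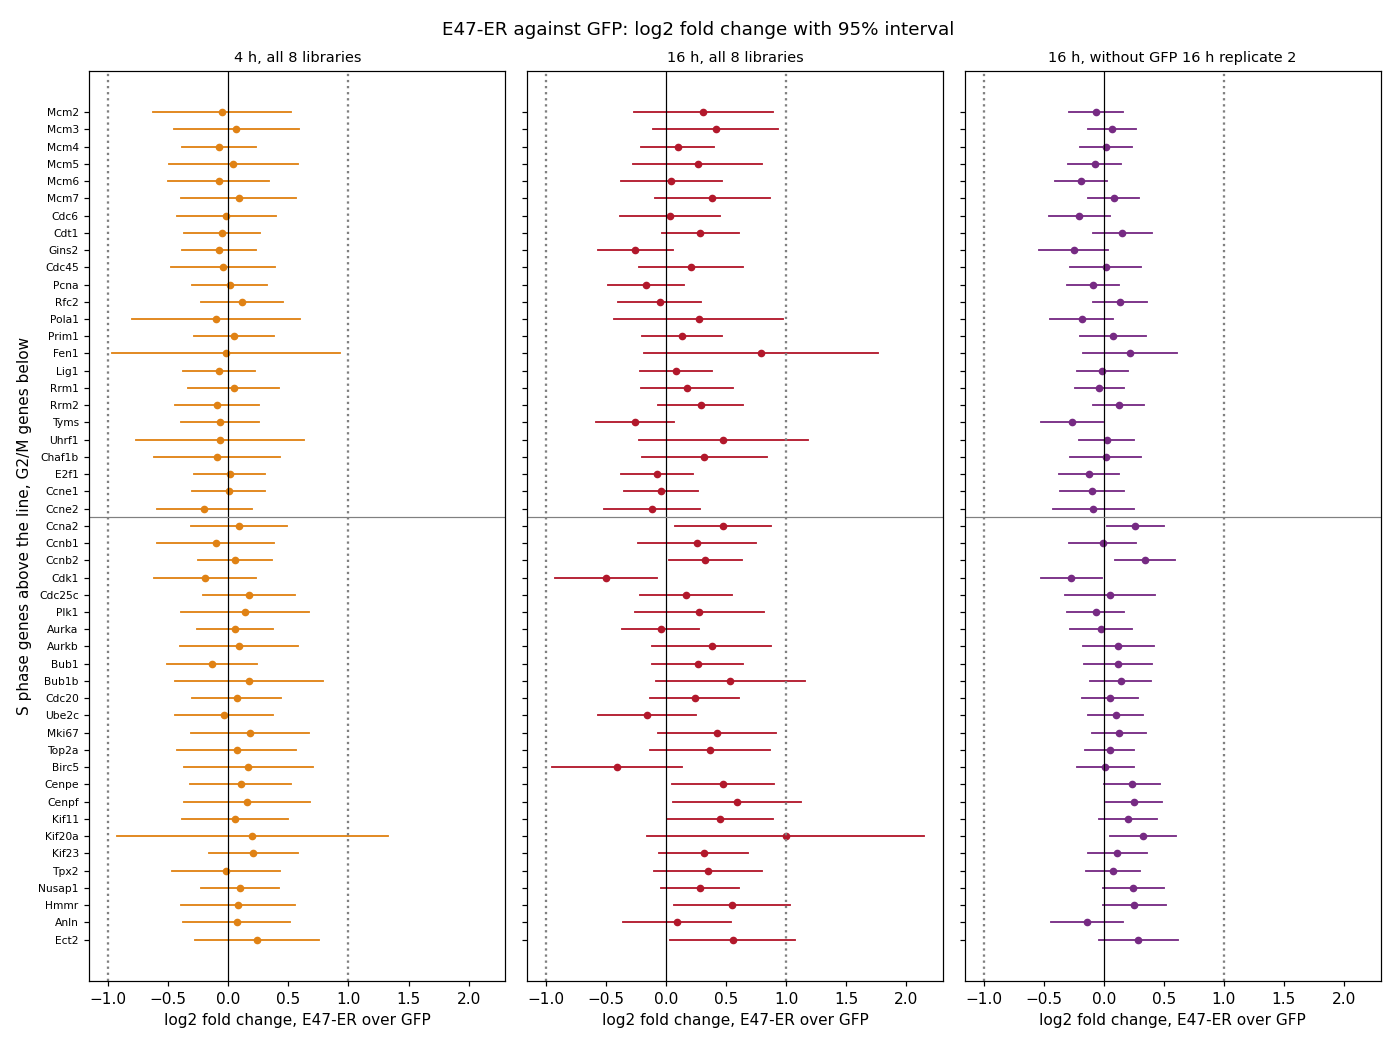
Log2 fold change, E47-ER over GFP, of each of the 49 genes with its 95% interval, at 4 h and 16 h with all 8 libraries and at 16 h without GFP 16 h replicate 2. Dotted lines mark 2-fold either way and the horizontal line divides S phase from G2/M genes. None was called in these 3 fits, and the medians of the S phase and G2/M genes at 16 h moved to -0.023 and 0.12 without that library.

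No member passed the test for a difference between the E47-ER effects at 16 h and at 4 h. With all libraries 0 of 49 were called for this difference, and 0% of all tested genes. No member had an unadjusted p under 0.05, against 671 or 4.92% of all tested genes. The smallest unadjusted p among the members was that of Rrm2, 0.115, at a difference of 0.38 on the log2 scale (95% interval -0.12 to 0.88). The median difference was 0.17 for the S phase genes and 0.29 for the G2/M genes. Without GFP 16 h replicate 2 these medians were -0.0017 and 0.046, with 0 of 49 members and 0.0424% of all genes called. Leaving out GFP 16 h replicate 1 in its place gave 30 members and 35.5% of all genes.

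Levels at 16 h were higher than at 4 h in E47-ER cells for most members by small amounts, and the calls depended on the library left out. With all 8 libraries 0 of 49 members were called, against 0.0147% of all tested genes, and 48 of 49 fold changes, 16 h over 4 h, were above 0 with a median of 0.20. Both libraries at 16 h were above both at 4 h for 29 members, 59.2% of them, against 25.9% of all tested genes. For 0 members were both below, against 24.5% of all tested genes. With GFP 16 h replicate 2 left out, which does not enter this contrast, 7 members rose, against 3.08% of all genes called in either direction. Without GFP 16 h replicate 1, which does not enter it either, 9 members rose, against 3.05%. The other 6 libraries, left out one at a time, gave 0 calls of members.

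These 7 were Rrm2, Chaf1b and Lig1 of S phase and Ube2c, Cenpf, Bub1 and Ccnb2 of G2/M. Rrm2 (ENSMUSG00000020649; chr12:24708241-24714146) had 366 and 332 CPM at 16 h and 288 and 252 CPM at 4 h in E47-ER cells (log2 fold change 0.36, SE 0.082, adjusted p = 0.0205). Chaf1b had 29.0 and 26.6 CPM at 16 h and 19.3 and 20.0 CPM at 4 h in these cells (log2 change 0.49, SE 0.12, adjusted p = 0.0289). Lig1 had 141 and 128 CPM at 16 h and 107 and 108 CPM at 4 h (log2 change 0.31, SE 0.084, adjusted p = 0.0482). In all 7 genes both libraries at 16 h were above both at 4 h. They were picked by a test on these same libraries, so this adds no support. Ube2c had 115 and 98.7 CPM at 16 h and 82.0 and 84.8 CPM at 4 h (log2 change 0.34, SE 0.090, adjusted p = 0.0404). Cenpf had 71.9 and 69.6 CPM at 16 h and 58.7 and 52.5 CPM at 4 h (log2 change 0.33, SE 0.091, adjusted p = 0.0485). Bub1, the kinase that recruits checkpoint proteins to kinetochores, had the largest fold of the 7 after Chaf1b. It had 45.01 and 41.0 CPM at 16 h and 35.5 and 28.6 CPM at 4 h (log2 change 0.41, SE 0.11, adjusted p = 0.0485). Ccnb2 had 78.7 and 66.5 CPM at 16 h and 54.3 and 58.5 CPM at 4 h (log2 change 0.35, SE 0.097, adjusted p = 0.0492). With all 8 libraries the same 7 genes had log2 fold changes of 0.32 (Lig1) to 0.50 (Chaf1b) and were not called.

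In GFP cells no member was called between 16 h and 4 h, and 0% of all tested genes were. With all libraries the median fold change was 0.028 for the S phase genes and -0.052 for the G2/M genes on the log2 scale. Set against GFP 16 h replicate 1 alone the medians were 0.19 and 0.17, with 0 of 49 members and 0.00707% of all genes called. That 1 library was above both GFP libraries at 4 h for 47 of 49 members, against 34.3% of all tested genes, and below both for 0, against 33.1%. In E47-ER cells, where both libraries count, the same fit gave medians of 0.16 for the S phase genes and 0.19 for the G2/M genes. GFP 16 h replicate 1 has no second library like it, so its 47 genes carry no replicate check. With GFP 16 h replicate 2 standing for the group alone, 28 members were called, 5 higher and 23 lower at 16 h, against 41.8% of all genes.

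**Figure D4:**
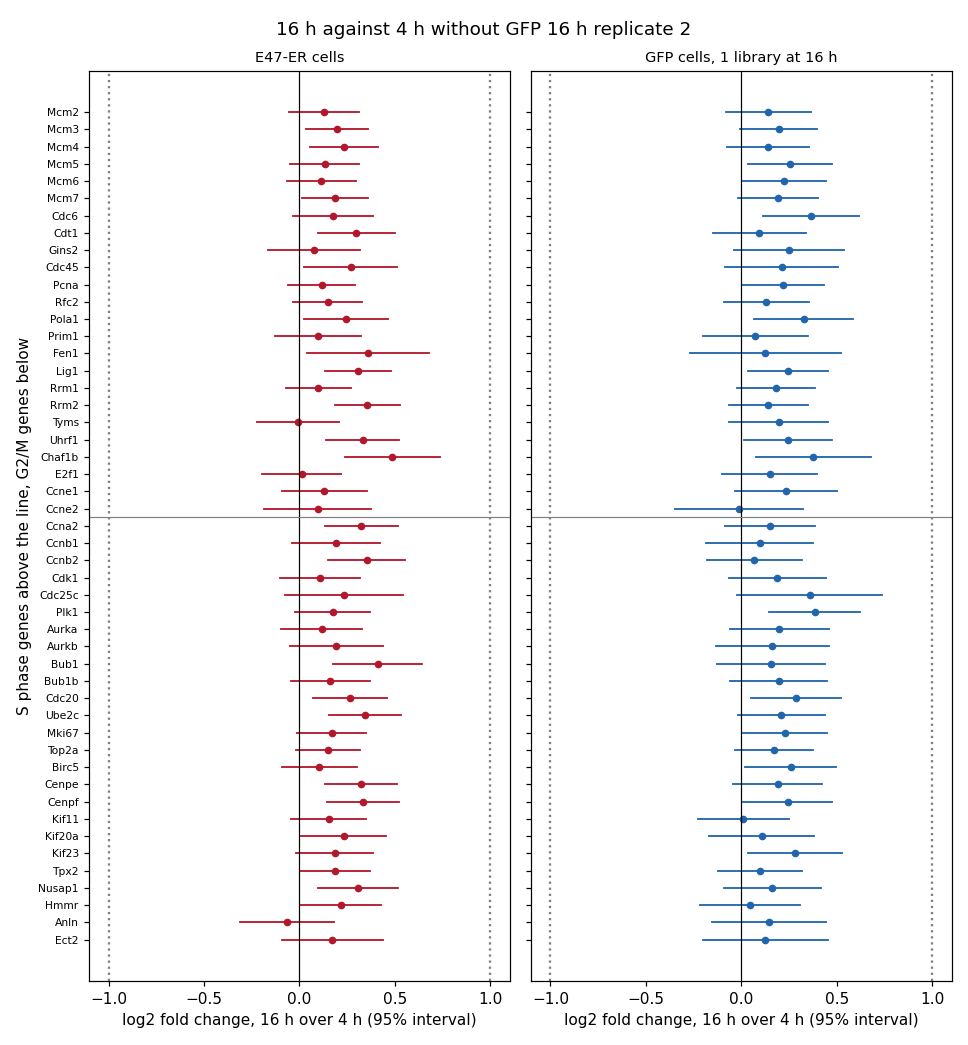
Log2 fold change, 16 h over 4 h, with its 95% interval for each of the 49 genes in E47-ER cells and in GFP cells, without GFP 16 h replicate 2. Dotted lines mark 2-fold either way. Most points lie above 0 in both panels. The S phase and G2/M medians were 0.16 and 0.19 in E47-ER cells and 0.19 and 0.17 in GFP cells. The GFP group held 1 library at 16 h in this fit, so calls in the panels cannot be set against each other.

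The members' values in GFP 16 h replicate 2 varied with transcript length, as did those of other genes. The log2 ratio of CPM, GFP 16 h replicate 2 over replicate 1, had a median of 0.59 among the shortest of 4 equal length classes of tested genes and 0.10, -0.16 and -0.33 in the longer classes. For the members the medians in these classes were 0.33 (4 genes), -0.40 (15 genes), -0.44 (21 genes) and -0.60 (9 genes). Across the 49 members Pearson's r with log2 transcript length was -0.36 and Spearman's rho -0.40, and across 13517 tested genes they were -0.40 and -0.45. These are descriptions over genes of the same pair of libraries, and genes are not replicates. The highest ratios were those of Birc5, at 0.77, and Ube2c, whose transcripts are the shortest of the members. The lowest were those of Kif20a, at -2.16, Fen1, at -1.87, and Pola1, at -1.17. The part of transcript length in the 16 h fold changes of single members was not tested, and a fit with each library's trend on length removed gave medians of 0.069 for the S phase genes and 0.25 for the G2/M genes, with 0 of 49 called.

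**Figure D5:**
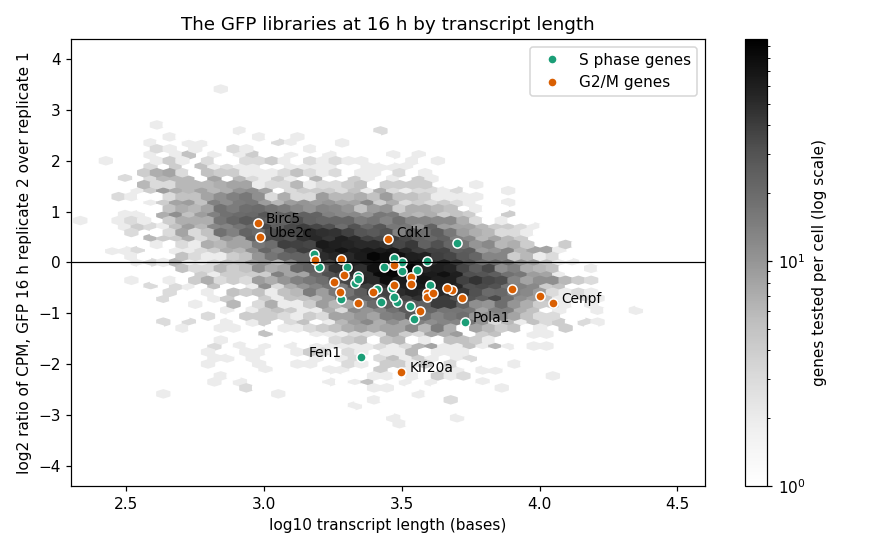
Log2 ratio of CPM, GFP 16 h replicate 2 over replicate 1, against log10 transcript length. Grey cells count the tested genes and points are the S phase and G2/M genes. Short transcripts such as Birc5 (0.77) lie high, and Fen1 (-1.87) and Kif20a (-2.16) lie lowest among the members.

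Other genes of the same pathways were read in 3 further lists. Of 32 further S phase genes, 0 were called at 4 h or at 16 h with all libraries, with medians of 0.022 and 0.086 on the log2 scale, and of -0.020 at 16 h without GFP 16 h replicate 2. The smallest p at 16 h were those of Blm, a helicase of recombination, and Brca2, a protein of DNA repair by recombination. Blm had 77.7 and 78.6 CPM in E47-ER cells at 16 h, against 57.0 and 44.2 CPM in GFP cells (log2 fold change 0.62, SE 0.16, adjusted p = 0.104). It was called by DESeq2, where 7.84% of all genes were called, and with no filter on low counts, where 6.07% were. Blm was also called without GFP 16 h replicate 2 (log2 fold change 0.45) and without replicate 1 (0.84). Those fits leave 1 GFP library at 16 h, and the shares of all genes they called are given above. Brca2 had 11.8 and 11.7 CPM in E47-ER cells at 16 h, against 8.13 and 4.79 CPM in GFP cells (log2 fold change 0.82, SE 0.24, adjusted p = 0.134), and its log2 fold change was 0.52 without GFP 16 h replicate 2. At 4 h the smallest p were those of Gins1 (log2 fold change -0.29, adjusted p = 0.975) and Blm (0.26). Of 32 further G2/M genes, 0 were called at either time with all libraries, with medians of 0.055 at 4 h and 0.30 at 16 h, and of 0.11 at 16 h without GFP 16 h replicate 2. The smallest p at 16 h were those of Cks1b, a small CDK-binding protein (log2 fold change -0.76, SE 0.25, adjusted p = 0.147), and Pttg1, securin (log2 fold change -1.07, SE 0.41, adjusted p = 0.176). Both were highest in GFP 16 h replicate 2, and without it their values were -0.32 and -0.14. At 4 h the smallest p were those of Cks2 (log2 fold change -0.31) and Ckap2 (0.15).

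The last list held 21 genes: E2F and DREAM regulators, which turn these genes on and off, and the kinases Wee1, Chek1 and Chek2. Of the 21, 0 were called at 4 h with all libraries, against 0.286% of all tested genes, and E2f2 alone was called at 16 h, against 1.59%. E2f2 (ENSMUSG00000018983; chr4:136172394-136196057) encodes an E2F factor grouped with E2F1 among the activators. It had 137 and 116 CPM in E47-ER cells at 4 h, against 70.4 and 70.8 CPM in GFP cells. At 16 h E2f2 had 152 and 143 CPM in E47-ER cells and 74.5 and 53.8 CPM in GFP cells, so that every E47-ER library was above every GFP library of its time. The log2 fold change was 1.196 at 16 h (SE 0.18, adjusted p = 0.0197) and 0.84 at 4 h (SE 0.17, adjusted p = 0.178). Without GFP 16 h replicate 2 it was 0.98 at 16 h (adjusted p = 3.82e-06) and 0.85 at 4 h (adjusted p = 9.91e-07). At 4 h E2f2 was also called by DESeq2 (adjusted p = 0.00684), by limma voom (0.000233) and with no filter on low counts (0.00164). It was called too with only the 4 libraries compared (9.02e-05), with the length trend removed (0.0211) and without GFP 16 h replicate 1. No call was made at 4 h with relative log expression scaling (adjusted p = 0.175), library totals only (0.510) or a minimum count of 30 (0.169). The same held with no robust step (0.1715) and with replicate blocks within or across times (0.407 and 0.159). Leaving out any library other than a GFP library at 16 h gave no call at 4 h. The log2 fold changes were then 0.71 to 0.96. Leaving out 1 library in turn ended the call at 16 h in 6 of 8 cases, with adjusted p = 0.0607 and 0.0618 without an E47-ER library at 4 h, 0.0758 and 0.0769 without a GFP library at 4 h, and 0.170 and 0.201 without an E47-ER library at 16 h. The call also ended with only the 4 libraries compared (adjusted p = 0.296) and with replicates as a block inside each time (0.0586), and it held by DESeq2 and limma voom. The difference between the times was 0.35 (adjusted p = 0.699). Wee1, the kinase that holds CDK1 inactive, had 37.4 and 40.2 CPM in E47-ER cells at 4 h, against 31.7 and 27.2 CPM in GFP cells. All libraries together gave no call of Wee1 at that time (adjusted p = 0.774). Neither did DESeq2 (0.9997), limma voom (0.0771) or the fit of only the 4 libraries compared (0.0758). Wee1 was called at 4 h only when GFP 16 h replicate 2 or replicate 1 was left out. Neither of these libraries enters the 4 h values. Its fold change stayed at 0.40 on the log2 scale, and only the spread shared by the groups became smaller. The shares of all genes called at 4 h in these fits are given above. Rb1, the retinoblastoma protein that holds E2F factors inactive, had 166 and 169 CPM in E47-ER cells at 16 h, against 134 and 111 CPM in GFP cells. It was not called at 16 h with all libraries (log2 fold change 0.45, SE 0.13, adjusted p = 0.134) or by DESeq2 (adjusted p = 0.0701). Rb1 was called at 16 h only without GFP 16 h replicate 2 (log2 fold change 0.31) or replicate 1 (0.61). Those fits leave 1 GFP library at 16 h. Exons of Rb1 share 8.11% of their bases with Rcbtb2 (17915 counts) and 6.78% with Lpar6 (24803 counts), both on the opposite strand. With the strand setting not given, its counts may hold reads of these genes. Beside E2f2, the member E2f1 overlapped between the groups, at 47.7 and 44.7 CPM in E47-ER cells and 50.1 and 47.1 CPM in GFP cells at 16 h.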

How the data were processed

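RNA of 8 libraries in 4 groups of 2 was counted by the authors, who deposited them as raw, whole-number counts by Ensembl gene, not normalized. The genome build mm10 and DESeq2 are named in the submitters' processing notes, which do not name an aligner, a counting tool, a strand setting or an annotation. Of 50686 gene IDs, 50462 matched GENCODE M21 (GRCm38), which gave symbols, positions and transcript lengths (the median over principal transcripts).

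The analysis used edgeR 4.0.16 in R 4.3.3: filterByExpr with a minimum count of 10, scaling by the trimmed mean of M values (TMM), and a robust quasi-likelihood fit of 1 mean per group to all 8 libraries. Adjustment of the 2-sided p-values followed Benjamini-Hochberg over all tested genes, with calls at adjusted p under 0.05. Levels are CPM on TMM-scaled library sizes. Intervals (95%) use the fit's t distribution. The procedure was tested on simulated data. No library was made to stand apart there as GFP 16 h replicate 2 does, so that case was not covered.

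The members and lists were chosen with earlier results of these data known. Values in every library are given for the 2 members of each role with the smallest p at 16 h and for members called, and for genes of the further lists called or, with none called, those 2 with the smallest p. Genes called without GFP 16 h replicate 2 and not with all libraries (7 members, Blm, Wee1 and Rb1) and members of extreme value were added after their values were seen. Alternatives were DESeq2 1.42.0, limma 3.58.1 voom with quality weights, other scalings and filters, no robust step, replicate blocks, only the libraries compared, removal of a length trend, and leaving out each library. Promoter windows were searched for exact letters on both strands. Figures were drawn with matplotlib 3.10.9.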

Additional observations from a re-analysis of the deposited data

How the results depend on the processing

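No member was called in the 5 comparisons with all 8 libraries, and this held at 4 h under every alternative that was run. At 16 h, 5 members (Cenpf, Bub1b, Ect2, Hmmr and Fen1) were called with no filter on low counts (6.07% of the 29929 genes then tested). Leaving out 1 library at a time gave 0 to 36 members at 16 h, 0 to 30 for the difference between times, 0 to 28 for time in GFP cells and 0 to 9 for time in E47-ER cells. The 36, 30 and 28 arose without GFP 16 h replicate 1, when 48.6, 35.5 and 41.8% of all genes were called. In that fit Mcm6 and Plk1 had the opposite sign for time in GFP cells, with log2 fold changes of -0.29 and -0.44, against 0.23 and 0.38 without GFP 16 h replicate 2 and 0.0014 and 0.049 with all libraries. For time in E47-ER cells, 3 members were called by limma voom, 12 with only the 4 libraries compared (7.32% of genes), 9 without GFP 16 h replicate 1 and 7 without GFP 16 h replicate 2. The cause was not tested.

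Counts of all genes called moved more: the main counts were 39 at 4 h and 217 at 16 h, against 115 and 944 by DESeq2, 405 and 55 by limma voom, 165 and 1816 with no filter, 442 and 6 with only the 4 libraries compared, 85 and 442 with the length trend removed, and 1 to 619 and 15 to 7022 over the libraries left out. At 4 h, library totals alone gave 19. For time in GFP cells 0 became 305 with no filter, and 0 to 6034 over the libraries left out, and for the difference 53 and 0 to 5124. For time in E47-ER cells 2 became 20 by DESeq2, 406 by limma voom, 53 with no filter, 957 with the 4 libraries compared and 0 to 440 over the libraries left out.

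Samples with the same replicate number did not deviate together (correlations -0.0901 to 0.202 over 13644 genes), so the numbers were not taken as pairs. With a replicate block, 0 members were called in every comparison it could be fitted to, and all genes called were 11 at 4 h and 54 at 16 h within each time, or 28 and 195 across times. The block within times gave no value for the time comparisons, and the fit of only 4 libraries none for the difference. Among single members, 222 of 4508 values changed sign without being called 128 became called in the same direction and 2 in the opposite one. With 2 libraries a group, the median half-width of an interval at 16 h was 0.43 on the log2 scale.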
